A study of Mus musculus with 6 samples.

Results

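Gpr17, Neu4, Bmp4, Enpp6, Bcas1, Fyn, Lims2 and Itpr2 are 8 genes that mark committed precursors and newly formed oligodendrocytes, the stage between the dividing precursor and the myelinating cell. They are defined by name, from their known place in the lineage, with no threshold on a measured value, and all 8 were found among the 24411 genes analysed. Read counts per gene came from mouse brain RNA isolated by RiboTag: after Cre recombination a cell makes the ribosomal protein Rpl22 with an HA tag, and an HA antibody then pulls down ribosomes and their RNA from those cells (IP). The icKO IP group (2 libraries) and the icKO input group (1 library) came from NG2CreERTM;Ank3F/F;Rpl22HA/+ mice, in which Cre removes floxed Ank3, the gene for ankyrin-G, an adaptor between membrane proteins and the cytoskeleton. The control IP group (2 libraries) and the control input group (1 library) came from NG2CreERTM;Rpl22HA/+ mice. Both genotypes therefore carried the inducible Cre and the tagged Rpl22 allele, and both were given tamoxifen at 100 mg/kg/day for 5 days from 8 weeks of age and analysed 1 month later. Each library pooled 3 mice, and input is homogenate RNA kept before the pull-down. The NG2 promoter is active in oligodendrocyte precursors and in pericytes of blood vessels, so the tagged ribosomes came from these cells and from cells that precursors became after tamoxifen.

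Oligodendrocyte precursors that stop dividing pass through a premyelinating stage before they make myelin, and many of them die there. Gpr17, a G protein-coupled receptor, is switched on at commitment and off again as cells mature, and holds back maturation while it is on. Bmp4 encodes a secreted ligand that steers precursors away from the oligodendrocyte fate, and Enpp6 a choline-specific phosphodiesterase used as a marker of new oligodendrocytes.

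Library totals ran from 18968806 to 23930812 counts, so that 3 counts corresponded to 0.125 to 0.158 CPM (counts scaled to a common library size). Levels below are CPM scaled by the trimmed mean of M-values (TMM) over all 6 libraries. Ank3 read 1163 and 1167 CPM in icKO IP, against 1389 and 1359 CPM in control IP, and 347 CPM in icKO input, against 381 CPM in control input. In IP it was 15.0% lower in icKO (log2 -0.23 ± 0.02 (SE), edgeR adjusted p = 1.31e-10). That change was near those of Bcas1 (-0.25) and Gpr17 (-0.27), given below. All 16 precursor markers tested were above 0 in every library, and 15 of them were higher in IP than in input. All 10 pericyte and smooth muscle markers were also higher in IP. All 12 neuron, 10 astrocyte and 10 microglia markers, and 8 of 10 endothelium markers, were lower in IP, with none at 0 in any library. Over all genes tested, 34.8% were higher in IP and 35.1% lower.

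Promoter sequences are shown for the gene with the largest fall in icKO IP (Bmp4), the gene that did not pass the test (Itpr2) and the one whose promoter held a searched motif (Enpp6). They are RefSeq windows of build GRCm38.p6, from 250 bases before to 50 bases after the start, in the gene's own direction. Windows of 5 of the 8 genes (Neu4, Bmp4, Enpp6, Fyn and Itpr2) were searched. Promoters of the other genes were not searched, which does not mean that all of them lack such a window. Bmp4 lies on the minus strand and its window is chr14:46390620-46390919, Enpp6 on the plus strand at chr8:46986637-46986936, and Itpr2 on the minus strand at chr6:146502174-146502473. Capitals mark the AACAAT match.
Bmp4: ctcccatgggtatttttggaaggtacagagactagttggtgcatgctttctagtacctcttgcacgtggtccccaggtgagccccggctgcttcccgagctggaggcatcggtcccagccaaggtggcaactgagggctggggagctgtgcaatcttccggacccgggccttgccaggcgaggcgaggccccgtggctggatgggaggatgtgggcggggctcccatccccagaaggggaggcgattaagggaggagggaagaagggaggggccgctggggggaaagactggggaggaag
Enpp6: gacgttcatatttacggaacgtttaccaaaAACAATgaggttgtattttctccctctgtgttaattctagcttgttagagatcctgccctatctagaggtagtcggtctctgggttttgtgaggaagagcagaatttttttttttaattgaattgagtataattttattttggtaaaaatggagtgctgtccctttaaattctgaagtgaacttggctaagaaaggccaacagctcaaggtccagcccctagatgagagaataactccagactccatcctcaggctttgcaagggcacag
Itpr2: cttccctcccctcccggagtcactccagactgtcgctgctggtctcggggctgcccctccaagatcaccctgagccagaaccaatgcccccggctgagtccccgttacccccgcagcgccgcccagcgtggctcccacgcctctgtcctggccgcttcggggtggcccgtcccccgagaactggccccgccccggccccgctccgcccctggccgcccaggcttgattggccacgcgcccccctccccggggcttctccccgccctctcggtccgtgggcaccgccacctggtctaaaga
The windows were searched on both strands for the E-boxes CAGCTG and CATCTG (the first is its own reverse complement), the SOX-type motifs ACAAAG and AACAAT, and the MYRF motif CTGGCAC. The AACAAT of Enpp6, on the plus strand at position -220 from the start, was the 1 match in the 5 windows. Over 32851 mouse windows of the same length, 16.3% held CAGCTG, 17.2% CATCTG, 18.7% ACAAAG, 10.7% AACAAT and 5.01% CTGGCAC, and 51.8% held any of the 5. The GC content was 64.0% in the Bmp4 window, 40.3% in the Enpp6 window and 73.3% in the Itpr2 window, and these matches describe letters in a window only.

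Together, the 8 genes accounted for 0.297% and 0.300% of all counts in icKO IP, against 0.373% and 0.377% in control IP. They accounted for 0.0358% of counts in icKO input, against 0.0338% in control input. Per kilobase of exon (CPM per kb, exon union of GENCODE M21 on mm10), Gpr17 and Bcas1 stood highest in IP. Gpr17 had 217 and 225 CPM per kb in icKO IP, against 265 and 269 in control IP. Bcas1, which encodes a protein of early myelinating oligodendrocytes, had 223 and 224 CPM per kb in icKO IP, against 266 and 268 in control IP. The 2 genes overlapped each other within each genotype. Fyn, a Src family kinase that relays axonal contact signals in oligodendrocytes, followed with 107 and 105 CPM per kb in icKO IP, against 131 and 133 in control IP. Neu4, a sialidase that removes sialic acid from glycans, had 33.7 CPM per kb in both icKO IP libraries, against 38.6 and 37.5 in control IP. Fyn and Neu4 were clear of their neighbours in that order.

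The lower 4 levels lay close together. Lims2, which encodes the adhesion adaptor PINCH2, had 23.4 and 23.7 CPM per kb in icKO IP, against 32.1 and 31.4 in control IP. Itpr2, which encodes an inositol trisphosphate receptor that releases calcium from the endoplasmic reticulum, had 24.6 and 24.2 CPM per kb in icKO IP, against 24.0 and 23.9 in control IP. Lims2 thus stood above Itpr2 in control IP and just below it in icKO IP. Lims2 counts may hold Gpr17 reads, as set out below, so its place in this order is uncertain. Bmp4 had 9.77 and 10.3 CPM per kb in icKO IP, against 14.2 and 16.7 in control IP, and Enpp6 had 10.4 and 10.3 in icKO IP, against 11.7 and 12.1 in control IP. The Bmp4 and Enpp6 levels came within the gap between replicates in icKO IP and were apart in control IP, where Bmp4 was the higher.

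The order in input was different at the top. Fyn had 30.9 CPM per kb in icKO input, against 28.9 in control input, and Bcas1 30.9 in icKO input, against 28.4 in control input. Gpr17 followed with 7.08 CPM per kb in icKO input, against 6.93 in control input. The other 5 genes read 0.955 to 2.48 CPM per kb in icKO input, against 0.871 to 2.69 in control input. Of the counts on the 8 genes, Gpr17 took 36.1% and 37.1% in icKO IP and 37.3% and 37.5% in control IP, but 10.6% in icKO input and 11.1% in control input. Fyn took 15.0% and 14.6% in icKO IP and 15.4% and 15.5% in control IP, but 38.9% in icKO input and 38.8% in control input.

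**Figure D1:**
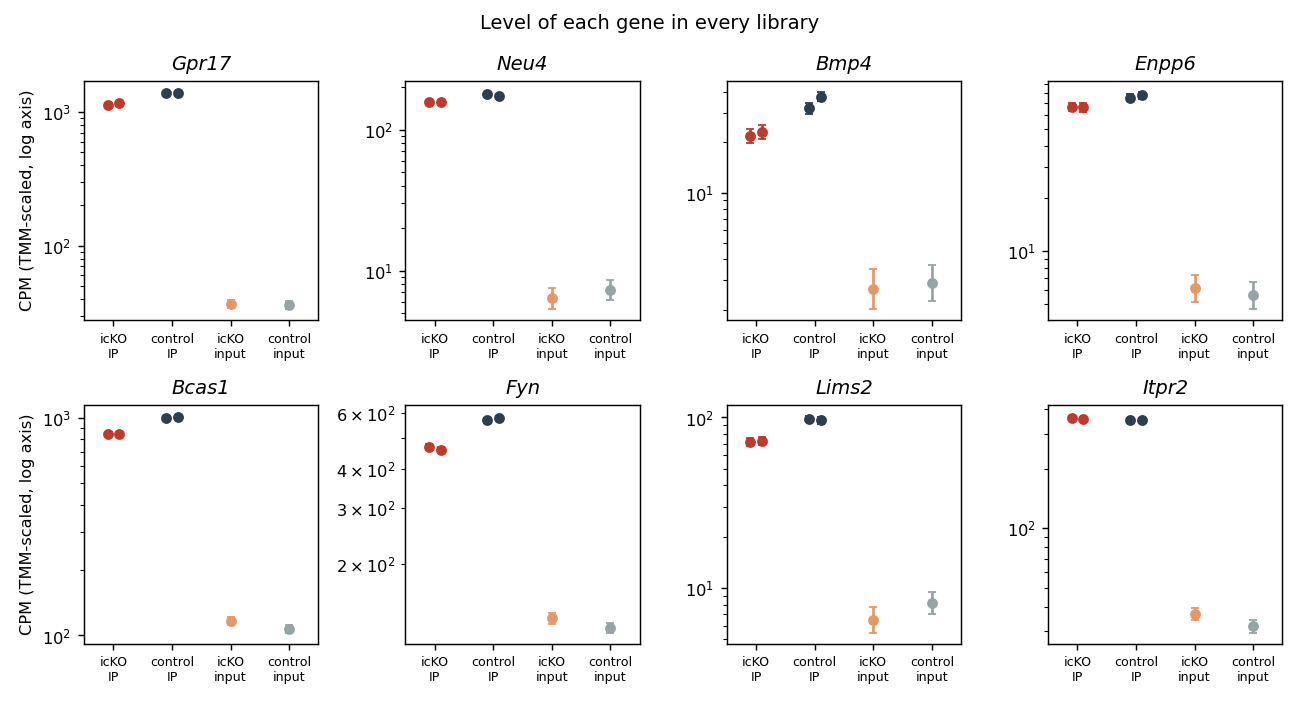
Level of each of the 8 genes in every library, in TMM-scaled CPM on a log axis, by group; each point is 1 library and its bar the 95% exact interval of its count (counting error only). In all 8 genes the IP libraries lie above the inputs, and Gpr17 reaches 1125 and 1168 CPM in icKO IP, 1379 and 1398 CPM in control IP.

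Gpr17 and Lims2 share ground on chromosome 18 (mm10). Gpr17 (ENSMUSG00000052229.5, 31942997 to 31949636, minus strand) lies inside Lims2 (ENSMUSG00000024395.9, 31922290 to 31958619, plus strand), and their exons share 188 bases, which are 3.62% of Gpr17 exon bases and 6.14% of those of Lims2. If Gpr17 reads lay evenly over its exons, 760 and 765 of them would fall on the shared bases in icKO IP and 1046 and 1224 in control IP. Those numbers equal 56.9% and 58.3% of the Lims2 counts in icKO IP, 50.8% and 52.7% in control IP, 20.4% in icKO input and 15.8% in control input. No source used here gives the strand setting of the counting, so Lims2 values are uncertain: on those bases its reads and those of Gpr17 cannot be told apart. Bcas1 exons share 440 bases (11.7%) with the antisense gene Bcas1os1, which has no values here, and 34 bases with the antisense gene Bcas1os2. Bmp4 exons share 89 bases with Gm15217, which had 0 counts in every library.

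All 8 genes were higher in IP than in input (edgeR quasi-likelihood test, adjusted p under 0.05), where 34.8% of the 15451 genes tested were higher in IP and 70% differed in either direction. Over 2-fold higher were likewise all 8, against 16.1% of genes. Their median log2 IP over input was 3.45, against 0.01 over all genes. The highest value was that of Gpr17, with 1125 and 1168 CPM in icKO IP and 1379 and 1398 CPM in control IP, against 36.8 CPM in icKO input and 36.0 CPM in control input. IP and input values were far apart, and the edgeR log2 difference was 5.11 ± 0.11 (SE), or 34.5-fold (adjusted p = 2.93e-09), rank 20 of 15451. Neu4 read 156.07 and 156.06 CPM in icKO IP and 179 and 174 CPM in control IP, against 6.37 CPM in icKO input and 7.31 CPM in control input. Its IP libraries lay far above both inputs, at 24.2-fold (log2 4.6 ± 0.09, edgeR adjusted p = 2.35e-09) and rank 27.

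Enpp6, Lims2, Itpr2 and Bmp4 were 10.1-fold to 12.1-fold higher in IP and ranked between 111 and 156. Enpp6 had 66.5 and 66.1 CPM in icKO IP and 75.1 and 77.4 CPM in control IP, against 6.13 CPM in icKO input and 5.59 CPM in control input. Bmp4 had 22.0 and 23.2 CPM in icKO IP and 32.0 and 37.5 CPM in control IP, against 2.67 CPM in icKO input and 2.91 CPM in control input. All IP libraries of both genes stood above both inputs, and Bmp4, with 55 counts in icKO input and 64 in control input, had the widest error (log2 3.34 ± 0.16). Bcas1 was 8.21-fold higher in IP (log2 3.04 ± 0.1, edgeR adjusted p = 1.06e-08, rank 226). Fyn, also expressed in neurons, was 3.94-fold higher (log2 1.98 ± 0.1, edgeR adjusted p = 1.04e-07) at rank 813. For scale, Pdgfra, a receptor that marks precursors, was 37.0-fold higher in IP and Mbp, a structural myelin protein, 4.67-fold.

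In the comparison of the genotypes within IP, 7 of the 8 genes fell in icKO relative to control on the TMM scale (edgeR, adjusted p under 0.05) and 1, Itpr2, did not pass; scaled to mature oligodendrocyte markers instead, 7 were higher and 0 lower, where 85.3% of all genes were higher and 0.65% lower. Of the 15069 genes tested on the TMM scale, 25.2% were lower in icKO IP, 22.1% higher and 47.2% changed in either direction. In the 7 genes both icKO IP libraries lay below both control IP libraries, an order shown by 36.5% of all genes. The median log2 change of the 8 was -0.26, against 0.0033 over all genes. In bulk RNA, fewer cells of a type and less RNA per cell cannot be told apart.

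Bmp4 fell the most, to 22.2 ± 0.779 CPM in icKO IP, against 34.1 ± 3.85 CPM in control IP (SD, n = 2 each, scaled over the 4 IP libraries). The single libraries did not overlap. The edgeR log2 change was -0.62 ± 0.09 (SE, adjusted p = 4.7e-07), 35.1% lower, and 4.48% of all genes stood at or below it. Lims2 had 71.5 and 72.5 CPM in icKO IP, against 98.2 and 96.0 CPM in control IP. These also did not overlap, and Lims2 was 25.6% lower (log2 -0.43 ± 0.05, edgeR adjusted p = 1.12e-08), with 11.6% of all genes at or below it. Lims2 counts may hold Gpr17 reads, as set out above, so this fall may not be separate from that of Gpr17.

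Fyn had 468 and 460 CPM in icKO IP, against 570 and 580 CPM in control IP. The icKO values were both the lower ones, by 19.1% (log2 -0.31 ± 0.03, edgeR adjusted p = 1.8e-11), and 19.5% of all genes stood at or below that change. Gpr17 averaged 1127 ± 28.0 CPM in icKO IP and 1362 ± 13.4 CPM in control IP (SD, n = 2 each), 17.2% lower (log2 -0.27 ± 0.02, edgeR adjusted p = 8.11e-12). Bcas1 had 843 and 845 CPM in icKO IP, against 1004 and 1013 CPM in control IP. It was 16.1% lower without overlap (log2 -0.25 ± 0.02, edgeR adjusted p = 5.78e-11), and 23.8% of all genes stood at or below that change.

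The smallest falls that passed were those of Enpp6 and Neu4. Enpp6 averaged 65.2 ± 0.376 CPM in icKO IP and 74.8 ± 1.63 CPM in control IP (SD, n = 2 each), with a log2 change of -0.2 ± 0.05 (edgeR adjusted p = 0.00259). Neu4 averaged 153 ± 0.295 CPM in icKO IP and 173 ± 3.63 CPM in control IP (SD, n = 2 each), with a log2 change of -0.17 ± 0.04 (edgeR adjusted p = 0.000229). Between 29.0% and 31.5% of all genes stood at or below these 2 changes.

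Itpr2 was the exception among the 8. It had 364 and 358 CPM in icKO IP, against 355 and 354 CPM in control IP. Both icKO libraries were slightly the higher on that scale, and the log2 change of 0.03 ± 0.03 did not pass (edgeR adjusted p = 0.432). Itpr2 has long exons, 14.8 kb, and with the gene length trend of each library removed its log2 change was -0.16 (edgeR adjusted p = 1.89e-05). The median log2 change of the 8 genes was then -0.26, against 0.0057 over all genes.

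**Figure D2:**
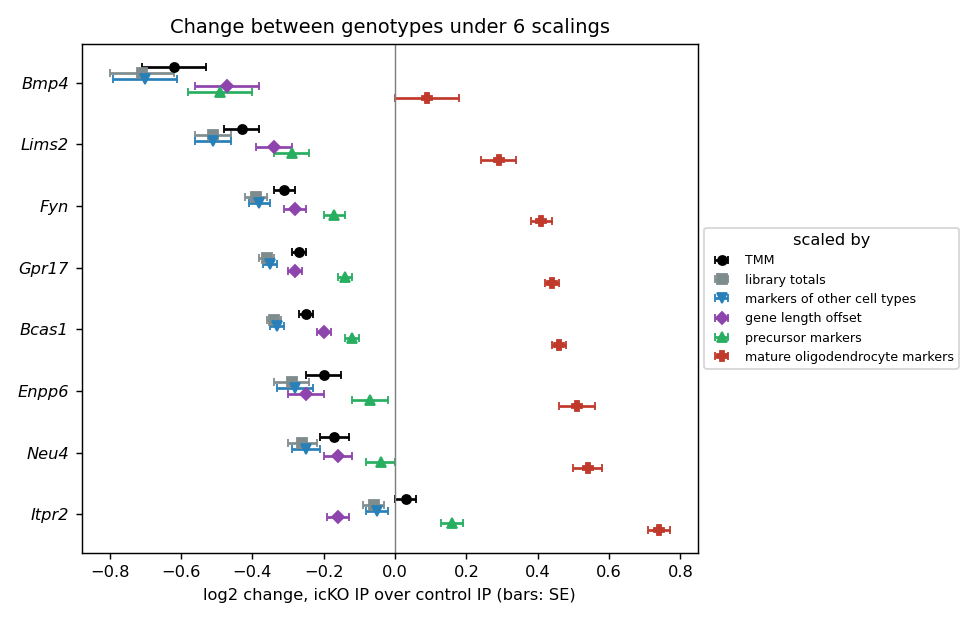
Log2 change of each of the 8 genes in icKO IP relative to control IP under TMM and under other scalings; points are edgeR estimates and bars their SE. Under TMM 7 genes are lower, as are 25.2% of all genes. Scaled to precursor markers 5 are lower and 1 higher, where 14.6% of all genes are lower and 34.3% higher. Scaled to mature oligodendrocyte markers 7 are higher, with Bmp4 at 0.09, and 85.3% of all genes are higher.

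The direction depended on the yardstick. The 36 mature oligodendrocyte markers had a median log2 change of -0.71, and their summed level was 19660 and 19595 CPM in icKO IP, against 31668 and 31911 CPM in control IP. Setting that median to 0 puts the median of all genes at 0.72, and gives Gpr17 a value of 0.44, Bcas1 0.46 and Itpr2 0.74. The 16 precursor markers had a median of -0.13, with sums of 6147 and 6172 CPM in icKO IP, against 6572 and 6609.6 CPM in control IP. Set to 0 on precursor markers, where 34.3% of all genes were higher and 14.6% lower, 5 of the 8 genes were lower and Itpr2 was higher at 0.16 (edgeR adjusted p = 1.58e-05), while Neu4 (-0.04, adjusted p = 0.396) and Enpp6 (-0.07, adjusted p = 0.321) did not pass.

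Ratios of counts within a library need no scaling between libraries. Counts of Gpr17 over Pdgfra were 0.513 and 0.534 in icKO IP, against 0.614 and 0.624 in control IP. Counts of Mbp over Gpr17 were 3.09 and 2.95 in icKO IP, against 4.35 in both control IP libraries. Bmp4 over Itpr2 was 0.0604 and 0.0647 in icKO IP, against 0.0900 and 0.106 in control IP. In each of these ratios the genotypes did not overlap, and the exact permutation p was 0.333 (two-sided), the smallest that 2 against 2 libraries can give. Gpr17 over Bcas1 was 1.33 and 1.38 in icKO IP, against 1.37 and 1.38 in control IP, and the genotypes overlapped.

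Markers of other cells moved with these changes. The 10 pericyte and smooth muscle markers all fell, at a median log2 of -0.96, and summed to 961 and 979 CPM in icKO IP, against 1847 and 1860 CPM in control IP; all were above 0 in every library, and scaled to mature oligodendrocyte markers 7 were still lower. Their 2 highest genes were Vtn, at 344 and 356 CPM in icKO IP, against 676 and 663 CPM in control IP, and Pdgfrb, at 177 and 176 CPM in icKO IP, against 303 and 308 CPM in control IP. Neuron markers summed to 3131 and 3088 CPM in icKO IP, against 2756 and 2800 CPM in control IP. Of the 12, 6 were higher and 3 lower, at a median log2 of 0.08. Of 10 astrocyte markers, 5 were higher and 1 lower (median 0.24). Among 10 microglia markers 1 was higher and 2 lower (median 0.12), and among 10 endothelium markers 1 was higher and 1 lower (median -0.35). Over all genes 22.1% were higher and 25.2% lower. The part of these shifts in the changes of the 8 genes was not tested.

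The inputs, with 1 library a genotype, had no replicate check and no test. Itpr2 had 755 counts in icKO input and 700 in control input, a CPM ratio of 1.15 (95% exact interval 1.04 to 1.28, counting error only). Bcas1 had a ratio of 1.09 (1.03 to 1.15) and Fyn 1.07 (1.02 to 1.13). Lims2, with 134 counts in icKO input and 181 in control input, had the lowest ratio at 0.792 (0.629 to 0.996). Gpr17 (1.02, 0.925 to 1.13), Neu4 (0.871, 0.686 to 1.1), Bmp4 (0.92, 0.63 to 1.34) and Enpp6 (1.1, 0.848 to 1.42) had intervals that held 1.

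The change of IP over input between the genotypes was lower in icKO for 3 of the 8 genes, higher for 0 and did not pass for 5, where 13.9% of the 15936 genes tested were lower, 9.67% higher and 23.6% changed in either direction. Each lone input was assumed to vary like the IP pairs. Fyn was 3.44-fold higher in IP in icKO and 4.56-fold in control, a log2 difference of -0.41 ± 0.06 (SE, edgeR adjusted p = 1.68e-06). Bcas1 was 7.24-fold higher in icKO and 9.42-fold in control (difference -0.38 ± 0.05, edgeR adjusted p = 1.92e-06). Gpr17 was 31.2-fold higher in icKO and 38.6-fold in control (difference -0.31 ± 0.07, edgeR adjusted p = 0.0022). These 3 are also the genes of the 8 with the most counts in input. Itpr2, which did not pass, came close to Gpr17 in icKO input (755 against 757 counts) and lay below it in control input (700 against 792). The part of input depth in these calls was not tested.

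Bmp4 had the largest of these differences, -0.51 ± 0.31, but did not pass (edgeR adjusted p = 0.254). Enpp6 had -0.34 ± 0.2 (adjusted p = 0.236), Itpr2 -0.18 ± 0.08 (adjusted p = 0.116), Lims2 -0.1 ± 0.18 (adjusted p = 0.758) and Neu4 0.02 ± 0.17 (adjusted p = 0.946). The median over the 8 was -0.32, against -0.01 over all genes and -0.73 over the 36 mature oligodendrocyte markers; a scaling to those markers was not run for this difference.

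**Figure D3:**
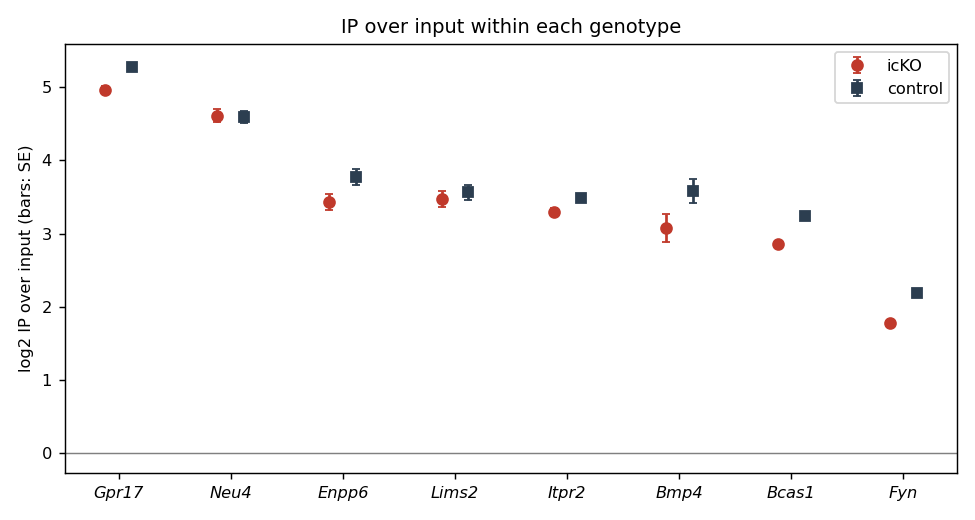
Log2 IP over input of each of the 8 genes within icKO (circles) and control (squares); bars are the SE of the edgeR fit. Gpr17 stands highest at 4.96 in icKO and 5.27 in control, Fyn lowest at 1.78 in icKO and 2.19 in control, and Neu4 is nearly the same in both at 4.61 in icKO and 4.59 in control.

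In the lists that follow, the shares over all genes to set beside the counts are 22.1% higher and 25.2% lower on the TMM scale, and 85.3% higher and 0.65% lower on the scale of mature oligodendrocyte markers. Of 33 other genes of the committed and newly formed stages, 22 fell and 2 rose in icKO IP on the TMM scale. Their median log2 was -0.31, against 0.0033 over all genes. Scaled to mature oligodendrocyte markers, 33 were higher and 0 lower. Scaled to precursor markers, 7 were higher and 15 lower, where 34.3% of all genes were higher and 14.6% lower. In IP over input 31 of the 33 were higher, where 34.8% of all genes tested were higher. Chn2, a Rac GTPase-activating protein, had 105 and 104 CPM in icKO IP, against 162 CPM in both control IP libraries (log2 -0.63 ± 0.04, edgeR adjusted p = 1.43e-14). Slc44a1, a choline transporter, had 360 and 350 CPM in icKO IP, against 531 and 533 CPM in control IP (log2 -0.58 ± 0.03). Mical3 was a member that rose, with 675 and 677 CPM in icKO IP, against 474 and 459 CPM in control IP (log2 0.54 ± 0.03, edgeR adjusted p = 7.29e-18), and Tmem2 rose by a log2 of 0.15, a call lost with library totals (0.06, adjusted p = 0.292), with scaling to markers of other cell types (0.07, adjusted p = 0.227) and without control IP replicate 2 (0.09, adjusted p = 0.239). The largest IP over input values of the list were those of Kif19a (log2 4.28) and Casr, the calcium-sensing receptor (4.03).

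Around Bmp4, 5 lists of its pathway, with 5, 6, 4, 9 and 13 genes tested, held 3 genes that rose and 9 that fell on the TMM scale. Over all genes 22.1% rose and 25.2% fell, so that the falls were near that share and the rises below it. Scaled to mature oligodendrocyte markers, where 85.3% of all genes were higher, 29 were higher and 0 lower. Of 5 other BMP ligands tested, 1 fell (Bmp5, log2 -0.81, edgeR adjusted p = 0.0126), a call lost under DESeq2 (adjusted p = 0.0718) and without control IP replicate 1 (log2 -0.54, adjusted p = 0.194), and Bmp3 and Bmp6 were lower in IP than in input (log2 -1.68 and -1.59). Of the 6 receptors, 2 rose (Bmpr1b 0.58 and Acvr2a 0.29) and 2 fell (Bmpr2 -0.18 and Bmpr1a -0.16). Bmpr1b and Acvr2a were both lower in IP than in input (log2 -1.2 and -0.33). Acvr2a did not pass without control IP replicate 2 (0.19, adjusted p = 0.102) or icKO IP replicate 1 (0.21, adjusted p = 0.0617). Among 4 SMAD transducers 1 fell (Smad5, -0.16). Under DESeq2 neither Bmpr1a (adjusted p = 0.121) nor Smad5 (adjusted p = 0.0734) passed, and scaled to precursor markers neither did Bmpr2 (-0.04), Bmpr1a (-0.02) or Smad5 (-0.02). Bmpr1a was also lost without control IP replicate 1 (adjusted p = 0.0741), control IP replicate 2 (0.0954) or icKO IP replicate 2 (0.152), and Smad5 without control IP replicate 2 (adjusted p = 0.25) or icKO IP replicate 1 (0.061). Among 9 targets Id2 (-0.38) and Smad7 (-0.31) fell. Of 13 inhibitors, 3 fell, Nbl1 (-0.75) and Fstl1 (-0.52) the most, and Chrd rose (0.37). Scaled to mature oligodendrocyte markers, the falls of Bmpr2, Bmpr1a, Smad5, Id2, Smad7 and Fstl1 turned to positive values.

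Around Fyn, 11 of 23 Src family kinases and partners fell and 3 rose on the TMM scale (median log2 -0.11; 25.2% of all genes fell and 22.1% rose); scaled to mature oligodendrocyte markers 22 were higher and 0 lower, where 85.3% of all genes were higher. Rhoa, the GTPase held down by Fyn signalling, had 129 and 128 CPM in icKO IP, against 175 and 181 CPM in control IP (log2 -0.47 ± 0.04, edgeR adjusted p = 6.04e-12). Csk, the kinase that inhibits Src family kinases, fell by 0.44 on the log2 scale, while Itga6 (0.62) and the phosphatase gene Ptpn5 (0.36) rose. Itga6 and Ptpn5 were both lower in IP than in input (log2 -0.44 and -1.3). Itgb1 was higher in IP than in input (log2 2.02) and Lingo1 lower (-1.67).

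Around Lims2, 6 of 8 genes of the PINCH, ILK, parvin and kindlin adhesion complex fell and 1 rose on the TMM scale (median log2 -0.37; 25.2% of all genes fell and 22.1% rose); scaled to mature oligodendrocyte markers 8 were higher, where 85.3% of all genes were higher. Rsu1 had 37.5 CPM in both icKO IP libraries, against 54.0 and 50.3 CPM in control IP (log2 -0.47 ± 0.07, edgeR adjusted p = 6e-07). Lims1, which encodes the related PINCH1, had 42.7 and 43.3 CPM in icKO IP, against 59.5 and 58.8 CPM in control IP (log2 -0.46 ± 0.06). Parvb was the most raised over input (log2 2.68). Parvg, at 0.811 to 2.71 CPM in IP, rose by a log2 of 1.3 and was lower in IP than in input (log2 -0.76).

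Around Itpr2, 8 of 17 genes of inositol trisphosphate receptors and store calcium rose and 3 fell on the TMM scale (median log2 0.07; 22.1% of all genes rose and 25.2% fell); scaled to mature oligodendrocyte markers 15 were higher and 0 lower, near the 85.3% of all genes. Ryr3, a ryanodine receptor that also releases stored calcium, had 404 and 419 CPM in icKO IP, against 223 CPM in both control IP libraries (log2 0.89 ± 0.03, edgeR adjusted p = 5.53e-22). Ryr1 had 114 and 127 CPM in icKO IP, against 62.3 and 61.9 CPM in control IP (log2 0.96 ± 0.05). Mrvi1 (-0.69) and the store-operated channel gene Orai1 (-0.45) fell on the TMM scale and had values of 0.02 and 0.26 when scaled to mature markers.

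The remaining lists were those near Neu4, Enpp6 and Gpr17. Of 7 genes, namely sialidases, polysialyltransferases and Ncam1, 2 rose (St8sia2 1.06, St8sia3 0.21) and 2 fell (Neu1 -0.48, Ncam1 -0.11) on the TMM scale. These counts were near the shares over all genes (22.1% and 25.2%), and 5 were higher and 0 lower on the mature marker scale. St8sia2, at 1.34 to 3.91 CPM in IP, and St8sia3 were both lower in IP than in input (log2 -1.43 and -1.05). St8sia3 did not pass with the gene length offset (0.07, adjusted p = 0.318). Of 14 Enpp family and choline genes, 8 fell and 3 rose, Pla2g16 (-0.78) and Slc44a1 falling and Gpcpd1 (0.28) and Smpd3 (0.24) rising the most. Smpd3 was lower in IP than in input (log2 -0.9). On the mature marker scale 12 of the 14 were higher and 0 lower. Of 12 receptor genes set beside Gpr17, purinergic, leukotriene and other G protein-coupled receptors, 6 fell and 0 rose. On the mature marker scale 7 were higher and 0 lower. The falls included Gpr37 (-0.77), Gpr37l1 (-0.22), Adgrg1 (-0.44) and S1pr5 (-0.45), which are not purinergic or leukotriene receptors. P2ry14 had 12.6 and 10.1 CPM in icKO IP, against 19.6 and 21.5 CPM in control IP (log2 -0.85 ± 0.12), and Cysltr2 read 0.536 and 0.884 CPM in icKO IP, against 1.48 and 1.61 CPM in control IP (log2 -1.12, edgeR adjusted p = 0.0311). The Cysltr2 call was lost under DESeq2 (adjusted p = 0.126), scaled to precursor markers (0.0562), with the gene length offset (0.0551) and without control IP replicate 1 (0.0806), control IP replicate 2 (0.149) or icKO IP replicate 1 (0.251). Of 18 factors that drive or hold back oligodendrocyte differentiation, 14 fell and 0 rose (median -0.37), and 17 were higher on the mature marker scale. The largest falls among them were those of the transcription factor genes Nkx6-2 (-0.75) and Zfp488 (-0.57), and the highest IP over input values those of Zfp488 (4.0) and Olig2 (3.99).

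**Figure D4:**
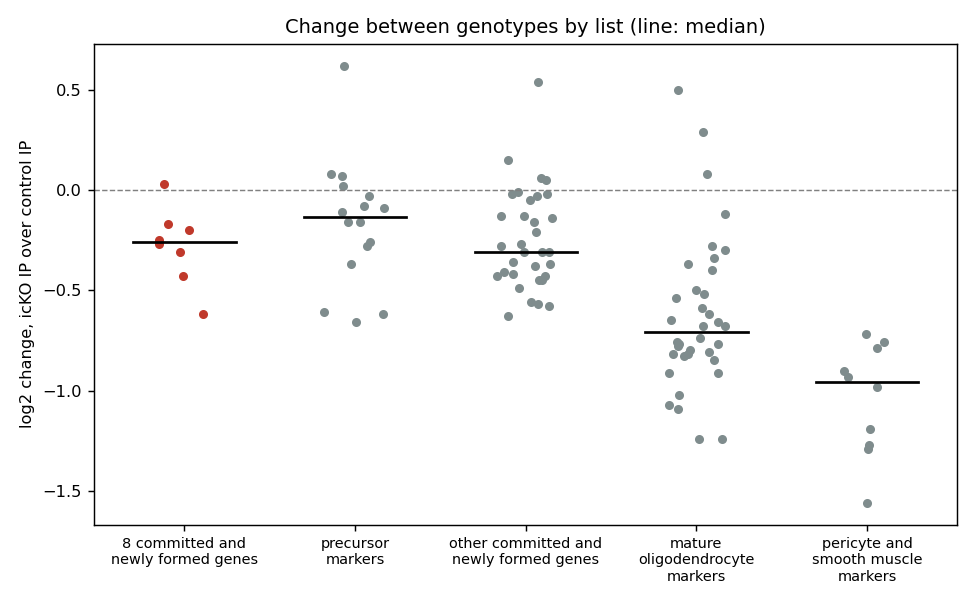
Log2 change in icKO IP relative to control IP of the genes of each list on the TMM scale; each point is 1 gene and the line the list median. The medians are -0.26 for the 8 genes, -0.13 for precursor markers, -0.31 for other committed and newly formed genes and -0.71 for mature oligodendrocyte markers. Scaled to mature markers, 7 of the 8 genes are higher, as are 85.3% of all genes.

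Likeness of profiles over the 6 libraries was measured as the Euclidean distance between centred log2 CPM, over 11636 genes with a mean of at least 5 CPM. The profile nearest to Gpr17 was that of Pdgfra (0.33), then Sapcd2 (0.38) and Cspg4 (0.47), which encodes NG2. Nearest to Fyn were Nedd1 (0.073), Itgb1 (0.085) and Smtn (0.097), and nearest to Bcas1 were Nkx2-2 (0.17), Soga1 (0.18) and Ccnd1 (0.18). E2f8 and Ntn1 were the 2 nearest to both Bmp4 (0.26 and 0.26) and Lims2 (0.18 and 0.19), followed by Pllp (0.28) for Bmp4 and Caskin2 (0.2) for Lims2. Neu4 had Pnlip (0.34), Sox3 (0.39) and 5730559C18Rik (0.41), Enpp6 had Calcrl (0.17), Mcam (0.18) and Emid1 (0.18), and Itpr2 had Galnt3 (0.13), Arhgap31 (0.16) and Adam12 (0.17). Among the 8 genes themselves the closest profiles were Enpp6 and Itpr2 (0.33) and the farthest Gpr17 and Fyn (3.6). The distances are mostly set by the gap between IP and input, which the 6 libraries share.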

How the data were processed

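RNA of 4 IP and 2 input libraries was measured. The authors deposited raw read counts per gene symbol. Trimming was done with Trimmomatic 0.39 and alignment to mm10 with STAR 2.7.10b, per the submitters' processing notes. A stranded total RNA kit (Takara SMARTer Stranded Pico v3) was used, per the labels' protocols. The counting program, gene models, strand option and treatment of duplicate reads: not given in the sources used here. Groups and replicate numbers came from the titles; the title of icKO IP 1 has cKO, read here as icKO. Of 24421 genes, 10 had a missing value in the count file and were left out, and 4697 had no count in any library. Counts were tested with edgeR 4.0.16 in R 4.3.3 (quasi-likelihood F test, two-sided, TMM, filterByExpr, Benjamini-Hochberg over all genes tested, adjusted p under 0.05), using limma 3.58.1, in 3 fits: the 4 IP libraries by genotype (15069 genes), IP over input with genotype as a term (15451) and the difference of IP over input between genotypes (15936). The common biological coefficient of variation was 3.01% in the first, with 2 residual degrees of freedom. Inputs were compared as ratios with 95% exact intervals. Steps were tested on simulated data. Alternatives included DESeq2 1.42.0, other scalings, filters, a gene length offset, a replicate block and leaving out each library. The 8 genes, lists and tests were chosen with earlier results of these data known. Some lists share genes. Lists name the 2 largest rises and falls that passed and up to 2 genes with the largest IP over input; marker lists the 2 highest. The titles call the 2 IP libraries of a group biological replicates; whether their pools came from separate mice is not stated. P-values therefore reflect spread among these samples alone, and that spread may be technical. Squared differences between counts were 2.13 times those of sampling noise in the icKO IP pair and 2.19 times in the control IP pair (chi-square per degree of freedom). A further marker gene fixed for reference is not reported here.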

Additional observations from a re-analysis of the deposited data

Results flagged for a closer look

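IP over input differed between the genotypes, by the test of the difference itself, for 3 of the 8 genes. The log2 difference (icKO minus control) was -0.31 for Gpr17, -0.38 for Bcas1 and -0.41 for Fyn (edgeR adjusted p = 0.0022, 1.92e-06 and 1.68e-06), against 13.9% of all genes lower. Each rests on 1 input library a genotype, assumed to vary like the IP pairs.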

How the results depend on the processing

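Depth limited Bmp4 in input most (55 and 64 counts in icKO and control), and 2 libraries an IP group limit every test. Leaving out each library kept the members' counts: 7 lower and 0 higher in IP by genotype (4 settings; all genes 2685 to 2862 higher, 3220 to 3392 lower, against 3326 and 3793 with all libraries), 8 higher in IP over input (6 settings; all genes 5034 to 5539 higher) and 3 lower in the difference (4 settings; all genes 1459 to 1600 higher, 2056 to 2289 lower). With 1 library left in a group, that library is assumed to vary like the others, whose pair gives the spread. IP over input of the 8 genes kept its direction and call in all 13 alternatives.

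For genotype in IP, scaling to mature oligodendrocyte markers turned Gpr17 (0.44), Neu4 (0.54), Bmp4 (0.09), Enpp6 (0.51), Bcas1 (0.46), Fyn (0.41), Lims2 (0.29), Pdgfra (0.68), Sox10 (0.3), Ank3 (0.48), Chn2 (0.09), Slc44a1 (0.13), Bmpr2 (0.54), Bmpr1a (0.56), Smad5 (0.56), Id2 (0.33), Smad7 (0.4), Fstl1 (0.19), Rhoa (0.25), Csk (0.28), Mrvi1 (0.02), Orai1 (0.26), Rsu1 (0.24), Lims1 (0.26), Neu1 (0.24), Ncam1 (0.61) and Zfp488 (0.14) positive; 12860 genes were then higher and 98 lower, and 7 members higher and 0 lower, since the scaling adds 0.71 to every gene. Scaling to precursor markers gave 5176 genes higher and 2198 lower, 1 member higher, and turned Pdgfra (0.1) and Ncam1 (0.03) positive. Library totals turned Itpr2 (-0.06) and Cspg4 (-0.0013) negative, markers of other cell types Itpr2 (-0.05), and the gene length offset Itpr2 (-0.16) and Cspg4 (-0.07); with genes of at least 5 CPM Pdgfra was 0.00084; apart from what each scaling adds, the cause was not tested.

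For the difference in IP over input, DESeq2 called 694 genes higher and 1135 lower, against 1541 and 2222 by edgeR. Library totals gave -0.05 for Neu4, -0.06 for Cspg4 and -0.25 for Itpr2 (adjusted p = 0.0237); the length offset gave -0.12 for Cspg4 and -0.35 for Itpr2 (adjusted p = 0.00233), so that Itpr2 then passed. Leaving out 1 IP library at a time gave -0.00037 (without control IP replicate 2) to 0.04 for Neu4 and -0.02 (without icKO IP replicate 2) to 0.04 for Cspg4, which was -0.0027 without control IP replicate 1; the cause was not tested.

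The replicate numbers carry no stated pairing, and deviations of same-numbered IP libraries correlated at -0.0031 over 15069 genes. With a replicate block, genotype in IP gave Gpr17 -0.27, Bmp4 -0.62 and Itpr2 0.03, and the members' counts were unchanged in all 3 comparisons.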
